A study of Mus musculus with 14 samples.

Results

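Mammary glands of ovariectomized mice given a vehicle injection were set against those of mice given estradiol, an estrogen receptor blocker, or both, to describe what all hormone or blocker pools had in common. All 14 arrays of the series entered: 2 of vehicle and 12 of other treatments. The members were the probe sets on which all 12 other arrays lay on one side of both vehicle arrays. Of 45037 probe sets, 1117 (2.48%) had all 12 arrays above both vehicle arrays and 1693 (3.76%) had all 12 below. With a gap of more than 0.25 on the log2 scale between the nearest arrays of the 2 sides, 44 lay above (0.0977%) and 36 lay below (0.0799%), and these 80 are described in most detail. The gaps chose the members and carry no test.

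All mice were female C57BL6, 11 to 12 weeks old on arrival, acclimatised for 1 week, ovariectomized 7 days before treatment and killed 3 h after it. The 10 groups of 8 mice were vehicle; 17b-estradiol (E2) alone; acolbifene (EM-652.HCl), tamoxifen citrate, raloxifene or fulvestrant alone; and E2 with each of these 4 blockers. The glands of a group were pooled, so an array measured a pool. There were 2 arrays for each of 4 groups (vehicle, E2, acolbifene, E2+acolbifene) and 1 for each of the other 6. Nothing in the labels states that paired arrays hold separate pools, so the spread within a pair may be technical. P-values of vehicle against the 12 others also count the spread between treatments. Those of fits with each treated group apart rest only on the spread within pairs. The raw-file names carry a code that is otherwise particular to 1 group, but raloxifene and E2+acolbifene share theirs. Whether that is a slip in the labels was not tested, and it bears on every value of these 2 groups.

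Estradiol acts through the estrogen receptor, which in the mammary gland raises transcription of genes such as Pgr, the progesterone receptor. Tamoxifen and raloxifene are partial blockers whose action depends on the tissue, fulvestrant leads to loss of the receptor protein, and acolbifene is described as a blocker of both receptor forms. Other signals also reach the gland within hours: glucocorticoids released on handling act through the receptor Nr3c1, and a circadian clock drives Dbp, Per and Nr1d genes in opposite phase to Arntl and Npas2. The vehicle mice were injected too. The hour of the day at which each group was killed is not given in the sources used here.

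Levels are log2 values after robust multi-array averaging (RMA), so a difference of 1 is a 2-fold difference. Array medians lay between 7.16 and 7.23, and the 2 arrays of a group correlated at 0.996 to 0.997 over all probe sets. Some arrays of different groups correlated as closely, such as tamoxifen with E2+raloxifene and E2 array 1 with E2+fulvestrant (0.997 each). The names of the deposited raw files fell under 2 prefixes: 7 arrays, both vehicle arrays among them, shared the first and 7 arrays, E2 array 1 and the 6 groups with 1 array, shared the second. Mean levels of the spiked-in control transcripts were 10.23 to 10.41 in vehicle, acolbifene and E2+acolbifene and 9.86 to 10.04 on the other 8 arrays. Values within the first prefix (2 vehicle arrays against 5 others) are given where they change a call. A further code at the end of the raw-file names was one for both vehicle arrays and another for all 12 others. The labels do not say what that code stands for, and it cannot be told apart from the treatment.

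The mammary label was checked on defining markers. The adipocyte hormone Adipoq had a mean level of 13.87, luminal keratins Krt8 and Krt18 10.35 and 10.75, and the milk protein Csn3 11.11. The lactation genes Csn2 and Wap had means of 6.90 and 6.40, near the 40th percentile of all probe sets (6.65). Of 14 luminal markers measured, 0 lay apart from vehicle on either side. Over 18193 genes read by their brightest probe set, 2.46% lay above and 4.3% below, so a count of 0 in a list this short says little. In pooled bulk tissue, fewer cells of a type and less RNA per cell cannot be told apart.

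The gene with the widest gap above vehicle was Myh1, a myosin heavy chain of fast skeletal muscle fibres. It stood at 4.84 and 4.95 on the vehicle arrays and at 5.94, 7.87 and 9.40 (lowest, median and highest) on the other 12, an 8.49-fold difference of means. The rule for members set every treated array above both vehicle arrays. The 12 spread so far that the difference of 3.09 ± 0.70 (SE) missed the threshold (limma adjusted p = 0.0818). Within the first raw-file prefix it passed (3.81, limma adjusted p = 0.00380). Myh2, a myosin of fast oxidative fibres, and the oxygen carrier Mb also lay above vehicle on all 12 arrays, with differences of 1.49 and 1.02. Mybpc1, a myosin-binding protein, was at 6.18 and 6.10 in vehicle and at 6.76 to 7.75 in the others. The sarcomere gene Ldb3 was at 6.91 and 6.71 in vehicle and at 7.40 to 8.40 in the others, and its difference of 0.96 passed (limma adjusted p = 0.0458).

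The rest of the muscle list did not lie apart. Of 20 skeletal muscle markers measured, 3 lay above and 0 below vehicle, against 2.46% and 4.3% over all genes. The list's median difference was -0.006. The per-array median of the list ran from -1.29 in E2+raloxifene to 0.75 in E2+acolbifene array 1. The main fast myosin Myh4 was at 9.37 and 9.46 in vehicle and at 7.49, 9.38 and 10.20 in the others, and the muscle creatine kinase Ckm was at 10.78 in both vehicle arrays and at 9.24, 10.57 and 11.50 in the others. For both genes the groups overlapped. The level of muscle markers thus moved between arrays, and its part in the difference of Myh1, Myh2 and Mb was not tested.

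Ccn2, connective tissue growth factor, had the smallest adjusted p among the members above vehicle. It was at 8.11 and 8.31 in vehicle and at 8.88, 9.04 and 9.42 in the others, a difference of 0.92 ± 0.12 (SE, limma adjusted p = 0.0112). Thbs1, a matrix glycoprotein, was at 8.43 and 8.27 in vehicle and at 8.88, 9.47 and 9.76 in the others, and rose by 1.07 (limma adjusted p = 0.0255). Hmox1, which degrades haem and responds to oxidative stress, was at 8.90 and 8.92 in vehicle and at 9.37, 9.85 and 10.42 in the others, and rose by 0.91 (limma adjusted p = 0.0492). Irf4, a transcription factor of lymphoid cells and adipocytes, was at 9.23 and 9.22 against 9.60 to 10.13, and rose by 0.57 (limma adjusted p = 0.0458). In each of these 4 genes the vehicle arrays were the lowest of all 14, which the rule for members fixes.

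**Figure D1:**
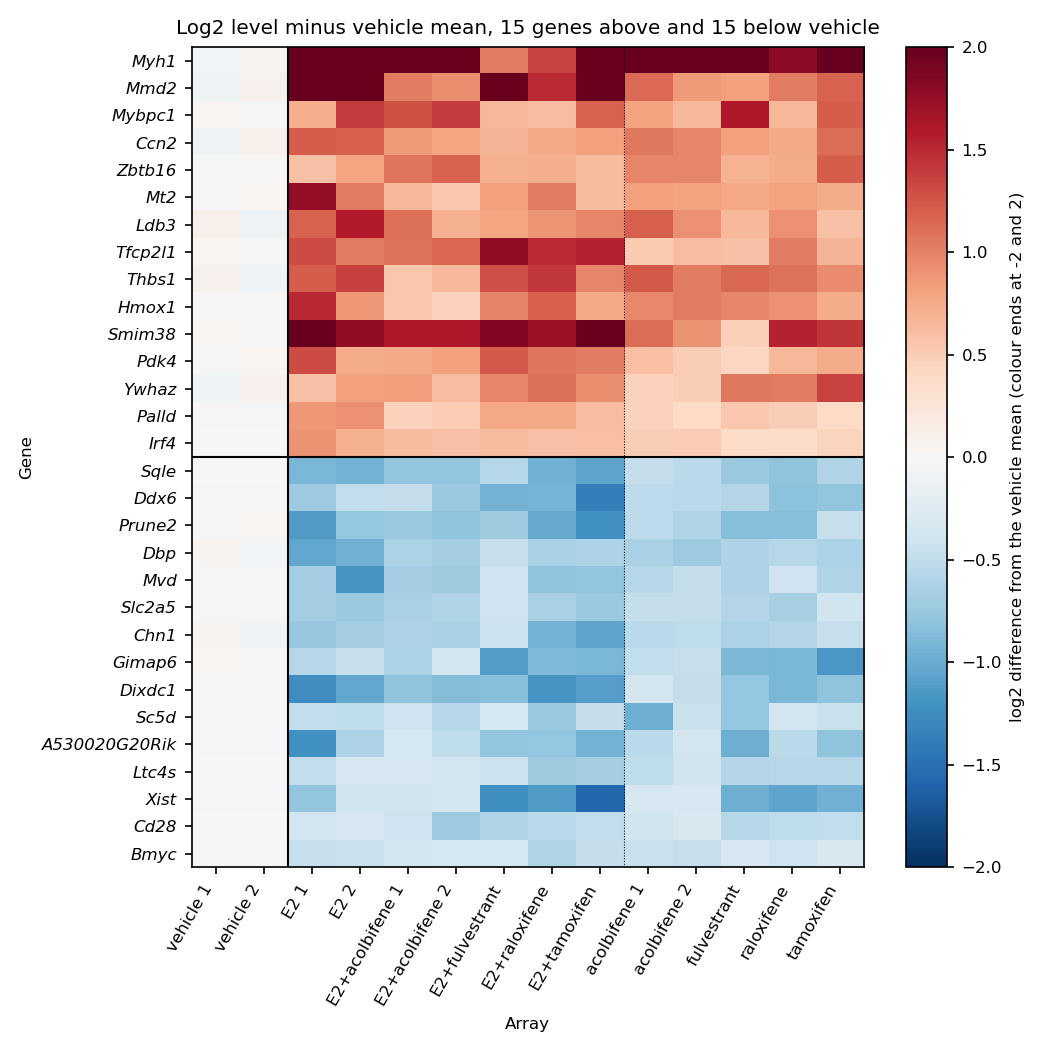
Heat map of the log2 level on each of the 14 arrays (columns) minus the mean of the 2 vehicle arrays, for the 15 named genes (rows) with the widest gap above and the 15 with the widest gap below vehicle; red is higher and blue is lower, and colours end at -2 and 2. All 12 columns right of the solid line have one colour in each row because this chose the genes. The depth of colour varies only up to its ends, so values of Myh1 above 2 look alike. Group means of Myh1, not drawn, ran from 1.05 in E2+fulvestrant to 4.38 in E2+acolbifene.

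Over all probe sets, 16 rose (0.0355%) and 20 fell (0.0444%) against vehicle in the limma fit of 2 vehicle against 12 other arrays (adjusted p under 0.05), and 5419 had an unadjusted p under 0.05. Of these 36, 29 were among the 80 with a gap over 0.25, a count that the rule itself largely fixes. Differences between treatments count as spread in this fit. The count hung on the vehicle arrays: it was 2 without vehicle array 1 and 0 without vehicle array 2, where 3132 had an unadjusted p under 0.05. It was 12 to 20 without E2+raloxifene, E2+acolbifene array 1, raloxifene or E2+fulvestrant, and 55 to 174 without E2 array 2, acolbifene array 2 or acolbifene array 1.

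The fit within the first raw-file prefix called 35 probe sets, 22 higher and 13 lower, of which 12 were among the 36. There the rises of Thbs1, Hmox1 and Irf4 (0.96, 0.78 and 0.58) no longer passed (limma adjusted p = 0.109, 0.107 and 0.0549), nor did Fam107a (0.52, limma adjusted p = 0.0925). The falls of Sqle and Slc2a5 had an adjusted p of 0.0683 each in that limma fit, and those of Dixdc1, Ltc4s and Mucl2 0.203, 0.290 and 0.101. Ccn2, Zbtb16, Cebpd, Ldb3, Smim38, Dbp and Prune2 passed in both fits. Both fits rest on the same vehicle arrays, counted as replicates, though the labels do not state that these hold separate pools. Passing in both is therefore not an independent check of these genes. Genes that passed only within the prefix, in addition to Myh1, included Ddit4, Fkbp5, Pdk4, Cdkn1a, Mt2, Mybpc1, Myh2 and Fdps; for Fkbp5 the difference was 0.84 (limma adjusted p = 0.0487).

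All 35 lists were chosen with earlier results of these data known, so their counts are a description. Glucocorticoid-responsive genes were the list with most members above vehicle. Of 25 measured, 13 lay above vehicle on all 12 arrays and 0 below, against 2.46% above and 4.3% below over 18193 genes read by their brightest probe set. The list's median difference was 0.34, against -0.007 over all genes, and its median by array ran from 0.13 in raloxifene to 0.51 in acolbifene array 1. All shifts by array subtract the same vehicle mean, so that one sign on all 12 arrays is shared through the control: it was seen in 8 of 35 lists, 4 above 0 and 4 below. In the fit over all probe sets, 3 of the 25 rose and 0 fell. These 3 were Zbtb16, Cebpd and Fam107a.

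Zbtb16, a transcription factor strongly induced by glucocorticoids, was at 9.53 and 9.56 in vehicle and at 10.12, 10.30 and 10.75 in the others, a difference of 0.86 ± 0.14 (SE, limma adjusted p = 0.0255). Its other probe sets gave 0.47 and 0.26 for Zbtb16 and were not apart. Cebpd, a factor of the acute phase and of adipocyte differentiation, was at 9.23 and 9.37 against 9.64 to 10.05, and rose by 0.57 (limma adjusted p = 0.0391). Fam107a, an actin-associated stress-induced protein, was dim, at 5.76 and 5.80 against 6.15 to 6.48, and rose by 0.55 (limma adjusted p = 0.0303); a second dim probe set gave 1.05 for Fam107a (limma adjusted p = 0.0818). The vehicle arrays were the lowest of the 14 in all 3, which follows from the rule for members.

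Fkbp5, the co-chaperone that feeds back on the glucocorticoid receptor, was at 9.83 and 9.79 in vehicle and at 10.18, 10.44 and 10.90 in the others. Both acolbifene arrays were the highest, and E2+fulvestrant was the lowest of the 12. The difference of 0.65 ± 0.16 (SE) missed the threshold (limma adjusted p = 0.112), and a second probe set of Fkbp5 gave 0.62. Pdk4, which turns fuel use from glucose to fatty acids, was at 10.62 and 10.70 against 11.09, 11.42 and 11.97 (difference 0.82, limma adjusted p = 0.0563). Cdkn1a, a cell cycle inhibitor, was at 9.63 and 9.87 against 10.17, 10.44 and 10.89 (difference 0.70, limma adjusted p = 0.0541). Both lists of glucocorticoid and of estrogen receptor targets hold Cdkn1a and the kinase Sgk1.

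The metallothioneins, which bind zinc and copper, also lay above vehicle. Mt2 was at 10.49 and 10.57 in vehicle and at 11.06, 11.33 and 12.29 in the others (difference 0.87, limma adjusted p = 0.0775), and Mt1 had a difference of 0.39. E2 array 1 was the highest in both. The remaining members apart were Errfi1 (0.82), an inhibitor of epidermal growth factor receptors, Ddit4 (0.56), Sgk1 (0.43), Lcn2 (0.34) and Nfkbia (0.25). Other textbook targets overlapped vehicle: Tsc22d3 differed by 0.30, Per1 by 0.37, Dusp1 by 0.27 and Klf9 by 0.09, and none of these 4 passed. The receptor Nr3c1 lay below vehicle on all 12 arrays, at 10.70 and 10.77 against 10.30 to 10.66, with a difference of -0.28 (limma adjusted p = 0.204).

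RefSeq promoter windows (GRCm38.p6, 250 bases before to 50 after a start site) were found for 11 of these 13 genes above vehicle, in 20 windows. The motif AGAACA, which is only a part of a full glucocorticoid receptor site, was searched on both strands. It was in 5 of the 20 windows, those of Fam107a and Sgk1, and in 19.0% of all 32851 windows. Full receptor sites were not searched. The metal response element TGCGCNC was in 4 of the 20 and in 15.4% of all windows. The printed stretches are the bases before the start site in 1 window each of Fam107a and Mt2, with the motif in capitals. Fam107a, which rose, holds 2 separate matches of AGAACA there. Fam107a lies at chr14:8309778-8310027 on the minus strand, with matches that begin 160 and 112 bases before the start site, and Mt2 at chr8:94172368-94172617 on the plus strand, with a match 128 bases before it. No printed match overlaps a match of another motif searched.
Fam107a: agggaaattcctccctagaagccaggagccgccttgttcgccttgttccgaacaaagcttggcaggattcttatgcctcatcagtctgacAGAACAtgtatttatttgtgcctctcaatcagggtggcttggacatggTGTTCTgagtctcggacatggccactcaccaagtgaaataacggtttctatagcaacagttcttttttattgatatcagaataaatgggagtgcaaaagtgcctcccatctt
Mt2: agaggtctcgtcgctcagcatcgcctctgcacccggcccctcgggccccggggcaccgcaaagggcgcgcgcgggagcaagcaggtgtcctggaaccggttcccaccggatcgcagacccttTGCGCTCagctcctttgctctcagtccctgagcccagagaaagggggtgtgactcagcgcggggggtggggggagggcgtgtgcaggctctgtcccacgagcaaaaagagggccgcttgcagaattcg

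Clock genes lay apart in both directions. Both clock lists, too, were chosen with earlier results of these data known. Of 13 genes of the output and repressor arm measured, 0 lay above and 5 below vehicle, against 2.46% above and 4.3% below over all genes. The list's median was -0.23. Dbp, a transcription factor whose level follows the clock closely, was at 8.96 and 8.84 in vehicle and at 7.86, 8.25 and 8.43 in the others, and fell by 0.69 ± 0.11 on the log2 scale (SE, limma adjusted p = 0.0255). The second probe set of Dbp fell by 0.82 (limma adjusted p = 0.0402). Per3, a repressor of the clock, was at 8.45 and 8.16 in vehicle and at 7.71 to 7.99 in the others, with a difference of -0.45 (limma adjusted p = 0.0521). Nr1d1, a nuclear receptor that represses Arntl, was at 10.18 in both vehicle arrays against 9.65 to 9.99, with a difference of -0.38 (limma adjusted p = 0.0820). Cry2 and Tef had differences of -0.29 and -0.23.

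In the opposite phase, Npas2, Nfil3 and Arntl lay above vehicle, 3 of 8 genes measured, and 0 lay below (2.46% and 4.3% over all genes). Npas2, a partner of Arntl, was at 7.46 and 7.30 in vehicle and at 7.69, 7.95 and 8.26 in the others, with a difference of 0.58 (limma adjusted p = 0.0650). Nfil3, a repressor of the genes that Dbp activates, and Arntl had differences of 0.50 and 0.30. The list's median was 0.17, by array from 0.05 in tamoxifen to 0.37 in E2 array 1. Members of the output arm did not all lie one way: Per1, Usp2, Hlf and Ciart had positive differences (0.37, 0.26, 0.15 and 0.12), Per2 and Bhlhe41 were near 0 (-0.02 and -0.01), and none of these 6 passed.

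Promoter windows were found for all 5 output genes below vehicle, in 6 windows. The D-box TTANGTAA was in 1 of the 6, that of Per3, and in 2.32% of all windows. The E-box CACGTG was in 2 of the 6, both of Tef, and in 7.15% of all windows. Dbp had none of the 8 motifs in its window. The stretch of Per3 lies at chr4:151044666-151044915 on the minus strand, with D-boxes that begin 205 and 158 bases before the start site. That of Tef lies at chr15:81802423-81802672 on the plus strand, with an E-box 127 bases before it. Both are printed because they hold the motif through which the clock is known to act, with that motif in capitals.
Per3: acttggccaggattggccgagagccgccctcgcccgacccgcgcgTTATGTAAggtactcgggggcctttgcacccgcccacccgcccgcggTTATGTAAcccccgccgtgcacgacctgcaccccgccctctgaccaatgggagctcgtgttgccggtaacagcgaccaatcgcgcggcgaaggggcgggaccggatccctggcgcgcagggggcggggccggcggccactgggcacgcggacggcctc
Tef: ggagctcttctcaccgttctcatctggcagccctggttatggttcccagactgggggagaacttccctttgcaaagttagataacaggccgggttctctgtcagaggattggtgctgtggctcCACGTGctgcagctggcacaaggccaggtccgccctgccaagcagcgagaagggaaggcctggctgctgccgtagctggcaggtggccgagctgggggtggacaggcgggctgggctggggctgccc

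Cholesterol synthesis genes made up the list with most members below vehicle. Of 20 measured, 13 lay below and 0 above, against 4.3% below and 2.46% above over all genes. This list too was chosen with earlier results of these data known. The list's median was -0.31, from -0.47 in E2+raloxifene to -0.15 in E2+fulvestrant. Sqle, which makes squalene epoxide and is a control point of the pathway, was at 10.44 and 10.42 in vehicle and at 9.37, 9.64 and 9.95 in the others. It fell by 0.77 ± 0.12 on the log2 scale (SE, limma adjusted p = 0.0255) and was the 1 gene of the list that passed. Fdps, which makes farnesyl diphosphate, was at 10.54 and 10.49 against 9.67 to 10.27 (difference -0.63, limma adjusted p = 0.0502). Cyp51, which removes a methyl group from lanosterol, was at 9.26 and 9.17 against 8.20 to 8.98 (difference -0.65, limma adjusted p = 0.0818).

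The late-pathway enzyme Sc5d was below vehicle on 3 probe sets, with differences of -0.55, -0.66 and -0.57 for Sc5d. For Mvd, 1 probe set lay below vehicle, at 7.41 and 7.35 against 6.20 to 6.96, and the brighter probe set of Mvd overlapped vehicle with a difference of -0.31. Hmgcs1, Mvk and Srebf2, the last the transcription factor that drives the pathway, had differences of -0.09, -0.05 and -0.04 and overlapped vehicle. The sterol response element TCACNCCAC was in 0 of 12 promoter windows of the 9 genes of the list below vehicle that had one, and in 1.24% of all windows.

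Of 23 fatty acid and triglyceride synthesis genes, 0 lay above and 6 below vehicle, against 2.46% above and 4.3% below over all genes. The list's median was -0.21, and none passed. Pnpla3, Scd2, Mlxipl, Acss2 and Fads2 had differences of -0.54, -0.50, -0.48, -0.48 and -0.47, while the very abundant Fasn and Scd1 had -0.06 and 0.02. Slc2a5, a fructose transporter that is in none of the lists, was at 9.56 and 9.60 against 8.83, 8.95 and 9.19, and fell by 0.59 on the log2 scale (limma adjusted p = 0.0255). White adipocyte markers were split, with 1 above and 4 below of 13 (2.46% and 4.3% over all genes) and a median of -0.02.

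**Figure D2:**
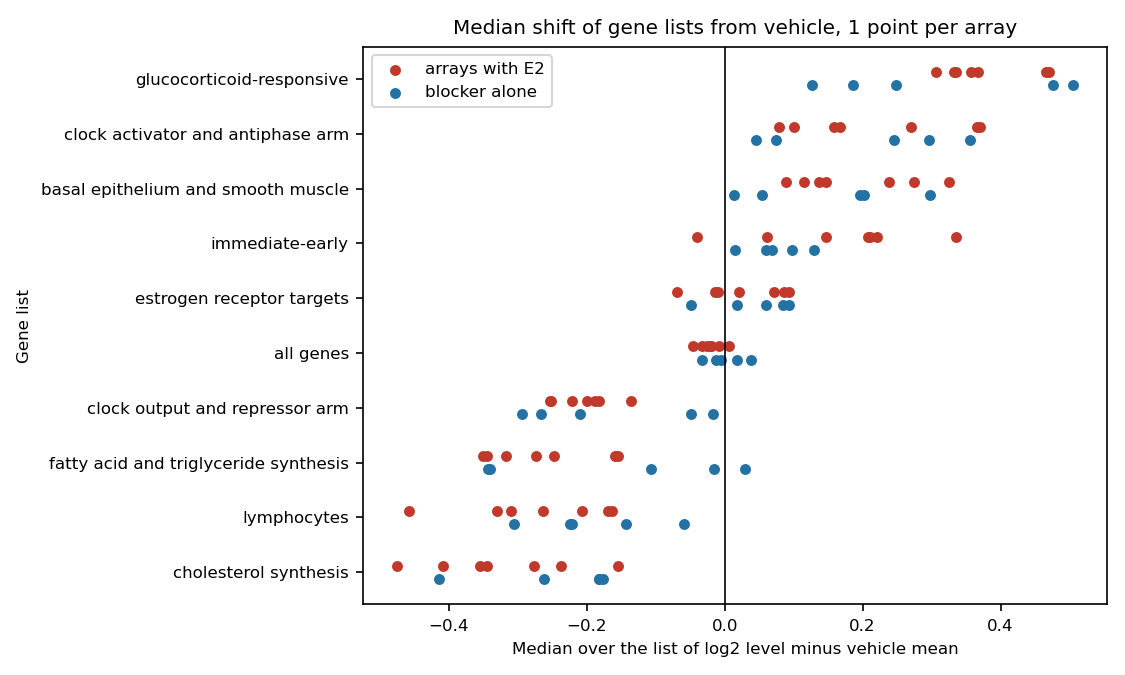
Median over each gene list of the log2 level minus the vehicle mean (horizontal axis), 1 point for each of the 12 arrays with E2 (red) or a blocker alone (blue). Points of the glucocorticoid list lie between 0.13 and 0.51, those of the cholesterol list between -0.47 and -0.15 and those of all 18193 genes between -0.05 and 0.04; all points of a list subtract the same vehicle mean and are not independent.

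Lymphocyte genes were lower than vehicle on all 12 arrays in 7 of 16 measured and higher in 0, and none passed. Over all genes the shares were 4.3% lower and 2.46% higher. The B cell receptor component Cd79a was at 11.62 and 11.59 in vehicle and at 10.90, 11.21 and 11.38 in the others (difference -0.42, limma adjusted p = 0.0986), and Cd79b, Ms4a1 and Blk had differences of -0.39, -0.41 and -0.35. For the T cell genes Cd3e and Cd4 the differences were -0.08 and -0.13, and the groups overlapped. The list's median ran from -0.46 in E2+fulvestrant to -0.06 in acolbifene array 1. The 15 widest gaps below also held 2 immune genes, Gimap6 (8.99 and 8.91 against 7.78 to 8.56) and the T cell co-receptor Cd28 (8.87 and 8.86 against 8.13 to 8.55). Lymph nodes lie within the mammary fat pad, and the part of node tissue in these differences was not tested.

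Prune2 and Dixdc1, of which the second acts in Wnt signalling, fell by 0.81 and 0.87 on the log2 scale (limma adjusted p = 0.0458 and 0.0492). Ltc4s, which makes leukotriene C4, fell by 0.50 (limma adjusted p = 0.0492), at 10.86 and 10.88 in vehicle against 10.16 to 10.54. Prol1 and Mucl2, secreted proteins of exocrine glands, fell by 1.06 and 1.30 (limma adjusted p = 0.000225 and 0.0190), but both were dim, with means of 4.72 and 5.01, where RMA values are compressed. Prol1 was at 5.44 and 5.80 in vehicle and at 4.44 to 4.83 in the others. Mucl2 was at 5.46 and 6.79 in vehicle and at 4.57 to 5.00 in the others, so that its vehicle arrays differed by about as much as the fall. Of 8 markers of salivary and other glands, 2 lay below vehicle, against 4.3% over all genes. Xist, the RNA of the inactive X chromosome, was at 11.29 and 11.25 in vehicle and at 9.71, 10.40 and 10.94 in the others, with E2+tamoxifen lowest and a difference of -0.79 (limma adjusted p = 0.197).

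Some members rested on 1 of several probe sets. For Ywhaz, an adaptor protein, the probe set above vehicle gave 0.85, while the 4 brightest gave -0.12, -0.05, 0.14 and -0.15 for Ywhaz. For Ddx6, an RNA helicase, the probe set below vehicle gave -0.75 and the brightest gave -0.04. Over the genes above by more than 0.25, 21 had 38 further probe sets at or above the 40th percentile, of which 11 lay above vehicle and 0 below, with a median difference of 0.22. Below vehicle, 14 genes had 30 further probe sets, of which 6 lay below and 0 above, with a median of -0.20.

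The lists of hormone targets, early responses, stress and other cell types are given with the same shares over all genes as background (2.46% above and 4.3% below). Of 31 estrogen receptor targets, 5 lay above vehicle and 0 below, with a median of 0.02. The 5 were Krt4, Cdkn1a, Sgk1, Inhbb and Ltf, from a list chosen with earlier results of these data known. Pgr overlapped vehicle because fulvestrant alone, at 7.88, lay between the vehicle arrays at 8.05 and 7.57; the other 11 arrays were at up to 10.59. Of 30 immediate-early genes, 3 lay above (Ccn2, Ccn1 and Zfp36) and 0 below, and Fos, Egr1 and Jun had differences of 0.18, 0.03 and 0.15 and did not pass. Of 18 heat shock genes 2 lay above and 0 below (median -0.04), of 8 cold- and temperature-responsive RNA-binding genes 0 lay apart, and of 20 hypoxia and vasoactive genes 4 lay above and 1 below. Esr1, the estrogen receptor itself, was at 10.71 and 10.83 in vehicle and overlapped the others, with a difference of -0.18 (limma adjusted p = 0.347). Of 14 basal epithelial and smooth muscle genes 1 lay above, Acta2, and the list's median was 0.17.

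**Figure D3:**
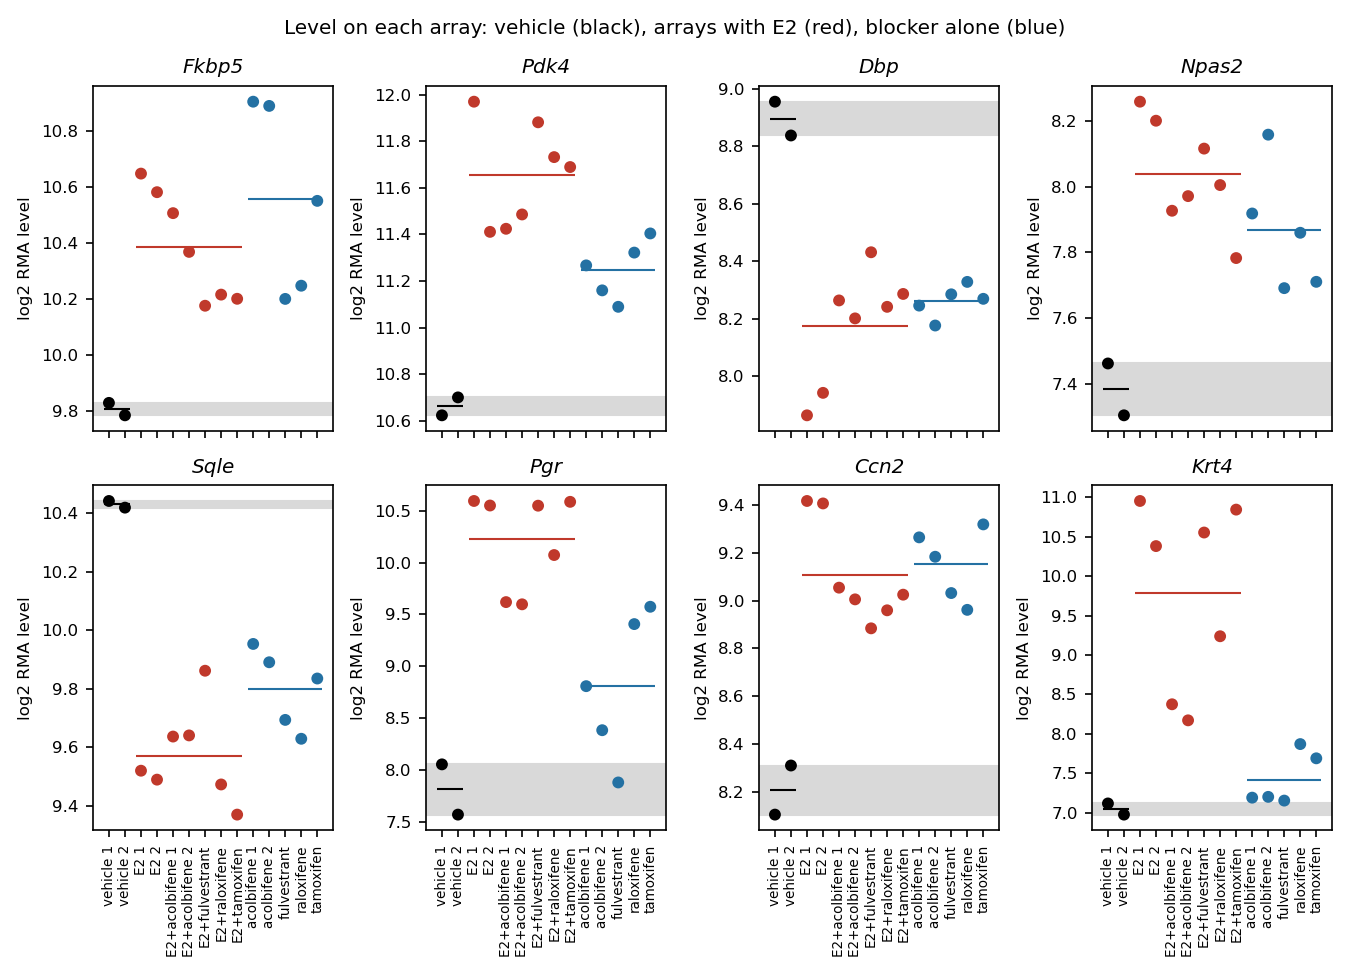
Log2 RMA level (vertical axis, its range set for each gene) on each of the 14 arrays for 8 genes: vehicle in black, arrays with E2 in red and blockers alone in blue, with lines at the means of these sets and a grey band between the vehicle arrays. Fkbp5, Pdk4, Npas2 and Ccn2 lie above the band and Dbp and Sqle below it on all 12 arrays; Krt4 and Pgr span from near vehicle (7.15 and 7.88 in fulvestrant) to 10.95 and 10.59 in E2 array 1.

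To ask which of these genes also followed estradiol, E2 with a blocker was set against the same blocker alone, averaged over the 4 blockers. This contrast uses no vehicle array. The rule used the nearest of the 12 treated arrays too, so the contrast is not wholly free of the values that chose the members, and the counts of members called in it are a description. Over all probe sets, 273 were called (0.606%) by limma at an adjusted p under 0.05. Of the 44 members above vehicle by more than 0.25, 7 rose with E2 and 0 fell; of the 36 below, 0 were called in either direction. The fit has 3 residual degrees of freedom from the E2, acolbifene and E2+acolbifene pairs, and pools with 1 array are assumed to vary like those. The count of 273 was 135, 161 and 169 without E2+acolbifene array 2, E2+acolbifene array 1 and acolbifene array 1, and 5, 5 and 6 members were then called. It was 147, 92 and 116 without the acolbifene, fulvestrant and tamoxifen pairs, with 7, 4 and 4 members called, and 785 without the raloxifene pair, with 7.

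Among members with 1 gene symbol, the largest rise was that of Mmd2, a membrane protein of the progestin and adipoQ receptor family. It was at 6.35 and 6.52 in vehicle, at 9.21 and 9.17 in E2, at 8.95, 8.73 and 7.93 with fulvestrant, tamoxifen and raloxifene added to E2, at 7.46 and 7.37 in E2+acolbifene, and at 7.25 to 7.62 in blockers alone. The contrast gave 0.81 ± 0.07 (SE, limma adjusted p = 0.000957), made of 1.70 for fulvestrant, 1.11 for tamoxifen, 0.45 for raloxifene and -0.02 for acolbifene. The blockers alone were above vehicle on this probe set too, as the rule for members requires. The brighter probe set of Mmd2 rose by 0.87 in the contrast, and overlapped vehicle.

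Tfcp2l1, an epithelial transcription factor, was at 7.31 and 7.23 in vehicle, at 7.79 to 8.30 in blockers alone and at 8.31 to 9.04 on arrays with E2, and rose by 0.76 in the contrast (limma adjusted p = 0.00113). Smim38, a small membrane protein, was at 8.62 and 8.54 in vehicle, at 9.06 to 10.12 in blockers alone and at 10.18 to 10.61 on arrays with E2, and rose by 0.69 (limma adjusted p = 0.00253). For both genes the 3 sets of arrays stood in that order without overlap, but the rule for members fixes the place of vehicle. The other 2 sets nearly met. Raloxifene and E2 array 2 were at 8.300 and 8.308 for Tfcp2l1. For Smim38, raloxifene and E2+acolbifene array 2, whose groups share a raw-file code, were at 10.12 and 10.18. Errfi1, Adamts1, a secreted protease, and Synpo, an actin-associated protein, rose by 0.47, 0.42 and 0.32 on average over the blockers. The shift from vehicle of Adamts1 was 0.61 in acolbifene and 0.35 in E2+acolbifene, and that of Synpo 0.69 and 0.61. With the other blockers each of these genes was higher with E2, as was Errfi1 with acolbifene. A probe set assigned to several genes rose by 1.38. In the same contrast Pdk4 gave 0.43 and did not pass (limma adjusted p = 0.119).

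The other named members were not called in this contrast. Myh1 gave -0.41 (95% interval -0.95 to 0.13), Ddx6 -0.29, Dixdc1 -0.27, Prune2 -0.24, Xist -0.24 and Fkbp5 -0.22. Zbtb16 gave -0.11, Cebpd -0.04, Mt2 -0.01, Ccn2 -0.16, Npas2 0.14 and Sqle -0.18. For Dbp the brighter probe set gave 0.07. Of the glucocorticoid list 1 of 25 rose (Errfi1) and 0 fell, with a median of 0.02; of both clock lists and of the cholesterol list 0 were called, with medians of -0.02, -0.001 and -0.13. With 95% intervals of -0.17 to 0.10 for Cebpd and -0.35 to -0.08 for Fkbp5, a change of 0.5 lay outside the interval of these 2 genes, but a p that misses the threshold does not show that E2 had no effect.

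**Figure D4:**
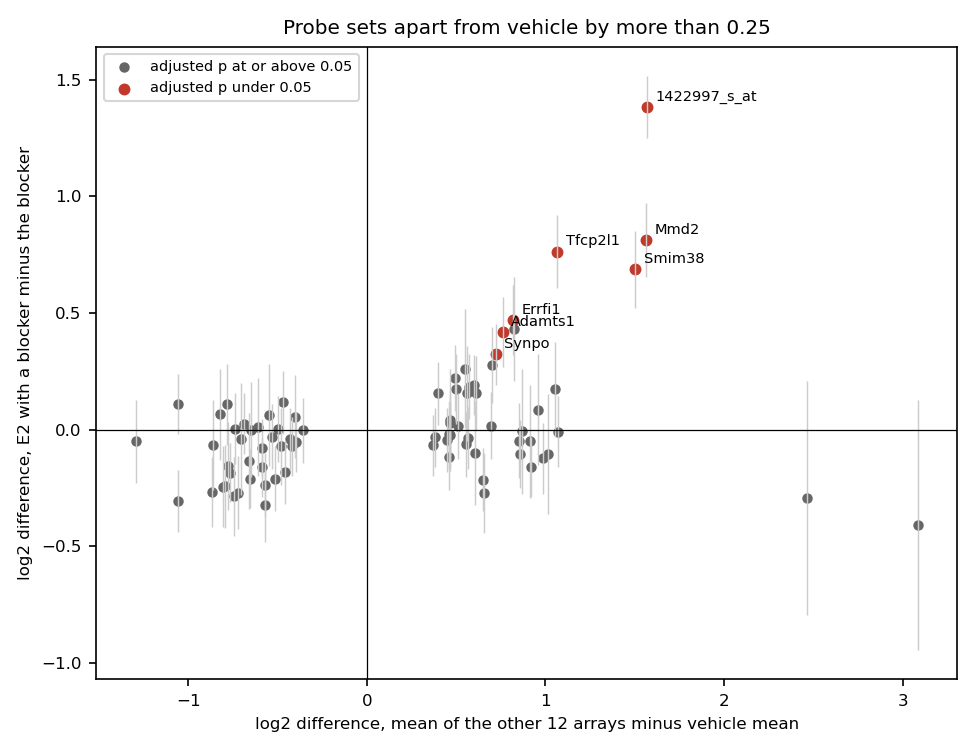
The 80 probe sets with a gap over 0.25: difference from vehicle (horizontal axis, log2) against E2 with a blocker minus the same blocker alone (vertical axis, log2), with 95% intervals of the latter as grey bars. The 7 probe sets called in the second contrast, in red, all lie to the right of 0 on the first axis and at 0.32 to 1.38 on the second; the empty middle of the horizontal axis follows from the gap rule.

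Among the probe sets apart by any margin, 32 of 2810 were called in the E2 contrast (1.14%, against 0.606% of all probe sets), 23 higher and 9 lower, and over all probe sets 144 were higher and 129 lower. Krt4, a keratin of stratified epithelia, had the largest rise: it was at 7.12 and 6.97 in vehicle, at 7.15 to 7.87 in blockers alone, at 8.17 to 9.24 in E2+acolbifene and E2+raloxifene and at 10.38 to 10.95 in E2, E2+fulvestrant and E2+tamoxifen. Its E2 contrast was 2.25 ± 0.11 (SE, limma adjusted p = 1.5e-05), and its lowest treated array exceeded the higher vehicle array by 0.04. The water channel Aqp5 and the membrane protein Prom2 rose by 1.16 and 0.81. The amino acid transporter Slc7a2 and the protease Tmprss2, both below vehicle on all 12 arrays, fell by 0.80 and 0.75 on the log2 scale. Of the estrogen receptor target list, 3 rose in this contrast (Krt4, Pgr by 1.34 and Mmd2) and 4 fell (Foxa1, Fgfr2, Cish and Cited1). That list was chosen with earlier results of these data known, so these counts are a description.

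Differences among the 9 treated groups were also tested without vehicle, by limma's F test, which called 603 probe sets (1.34%). The test has no term for the raw-file prefix. Acolbifene and E2+acolbifene carry the first prefix, the 6 groups with 1 array the second, and only E2 both. Differences between those sets of groups cannot be told apart from the prefix. Of the members, 12 of 44 above and 2 of 36 below were called. The genes above were Myh1 on both its probe sets, Mmd2, Tfcp2l1, Smim38, Fkbp5, Ptx3, Errfi1, Fam107a, Adamts1 and Atp8b1, with 1 probe set of several genes; below they were Xist and a probe set of several genes or none. The F test count was 143 to 177 when an acolbifene or E2+acolbifene array was left out, and 5 to 8 of the 80 members were then called in place of 14. For the 44 members above, the median shift from vehicle ran from 0.49 in fulvestrant to 0.88 in E2, and E2 had the largest shift in 19 of them. For the 36 below, it ran from -0.48 in acolbifene to -0.79 in E2+raloxifene, which carry different prefixes. The shift of Xist was -0.34 in acolbifene and -0.38 in E2+acolbifene, and -0.96 to -1.56 in the 6 groups with 1 array.

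Set against vehicle separately, the 7 arrays with E2 gave 369 called probe sets and the 5 blocker-only arrays gave 19, of which 57 and 12 were among the 80 members. Both comparisons share the vehicle arrays and reuse treated arrays that chose the members, so the rule itself largely fixes the counts of members called. The sets also differ in number of arrays, so their counts cannot be set against each other. Estradiol or blocker action, handling at or before injection and the hour of sampling would each set vehicle apart from the 12 others in this design, and with 1 vehicle group they cannot be told apart from one another.

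At the threshold, Serpina12 and 4930526F13Rik lay just inside the gap above vehicle (0.256 and 0.253), and Eln and Frmd4b just outside (0.248 and 0.246). Below vehicle, Hipk2 and Zfp119a lay just inside (0.253 and 0.252), and Mfsd12 and Zfp945 just outside (0.249 and 0.245). Of the 44 above, 40 carried 1 gene symbol, for 37 genes, and 40 had a mean at or above the 40th percentile; of the 36 below, the counts were 29, 28 and 31.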

How the data were processed

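The authors deposited log2 expression values of 14 arrays, for which the submitters' processing notes name RMA without a version. The series text names U74Av2 arrays, but the 45101 deposited probe sets carry the identifiers of a later, larger Affymetrix mouse array. After 64 control probe sets were left out, 45037 remained: 34945 with 1 gene symbol, 932 with several and 9160 unnamed here. Number of arrays limits the precision. Tests used limma 3.58.1 under R 4.3.3 (lmFit, eBayes, Benjamini-Hochberg over all probe sets, adjusted p under 0.05), checked on simulated data. Named genes were the 15 widest gaps each way among probe sets with 1 symbol and a mean at or above the 40th percentile, members of 35 gene lists (526 of 565 genes measured, by their brightest probe set), and the 5 largest rises and falls in the E2 contrast; other genes were chosen after their values were seen. The members and lists were chosen with earlier results of these data known. Alternatives are given in the closing section. Promoters came from RefSeq (GRCm38.p6).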

Additional observations from a re-analysis of the deposited data

Results flagged for a closer look

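For 10 genes apart from vehicle by any margin, the shift from vehicle differed between pools with and without E2, by the limma contrast of E2 with a blocker minus the same blocker alone (adjusted p under 0.05 over all probe sets). Higher with E2 were Krt4 by 2.25, Aqp5 by 1.16, Prom2 by 0.81, Mmd2 by 0.81 and Tfcp2l1 by 0.76. Lower with E2 were Slc7a2 (-0.80), Tmprss2 (-0.75), Clec4d (-0.52), Col12a1 (-0.47) and Agps (-0.42). Clec4d, a myeloid lectin, and Col12a1, a collagen, lay above vehicle on all 12 arrays yet were lower with E2 than without for acolbifene, fulvestrant and tamoxifen, and for raloxifene gave 0.11 and 0.24. Mmd2 gave -0.02 for acolbifene against 1.70 for fulvestrant; the difference between blockers was not tested.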

How the results depend on the processing

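The main limit is 1 vehicle pool or pair of arrays: against the main 36 calls for vehicle against the other 12 arrays, leaving out 1 array in turn gave 0 (limma; 3132 at an unadjusted p under 0.05, without vehicle array 2) to 174. The count was 2613 with 10 groups, where the spread comes only from replicate arrays, 2 with pool means, 84 with an intensity trend, 62 with dim probe sets left out and 96 after quantile normalization again; it was 369 for vehicle against the 7 arrays with E2 and 19 against the 5 blocker-only arrays. The same replicate numbers did not pair arrays (correlations of -0.12 to 0.12); on the 8 arrays of replicated groups the count was 21 without and 9 with the replicate block. The 80 members became 223 within the first raw-file prefix, 623 with a gap over 0.1, 7 with a gap over 0.5, and 81 to 348 leaving out 1 array. For E2 with a blocker, the 273 calls became 569 with a trend, 147, 92, 785 and 116 without the acolbifene, fulvestrant, raloxifene and tamoxifen pairs, and 135 to 251 leaving out 1 array. Single blockers, an alternative chosen after seeing the data, gave 2827 for acolbifene, 108 for fulvestrant, 1 for raloxifene and 59 for tamoxifen; the acolbifene pairs alone gave 1338 without and 648 with the replicate block. The 603 calls of the F test became 4219 with a trend, 987 with dim probe sets left out, 336 after quantile normalization again, and 143 to 466 leaving out 1 array. Of 948 values of 38 named genes under 25 alternatives, 685 kept their call, 167 lost it and 96 gained it; their signs are largely fixed by how the genes were chosen and are no sign of stability. The cause of these changes was not tested.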
